A study of Mus musculus with 4 samples.

Results

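The Frizzled genes encode the cell-surface receptors for Wnt proteins, and their transcripts were measured in bulk RNA from mouse cortices at E15 (embryonic day 15) in which the transcription factor Lhx2 was either intact or targeted. The receptors were chosen by symbol, as Fzd followed by a number, and not by a measured value, although the family was picked for description with earlier results of these same counts known. Of the 10 names Fzd1 to Fzd10, 9 have a row among the 13289 genes of the table, and Fzd10 is not analysed here. The 4 libraries were 2 from control cortex, titled WT, and 2 from Lhx2 cKO cortex. Lhx2 encodes a LIM-homeodomain factor of cortical progenitors, the abbreviations are taken to mean wild type and conditional knockout, and the Cre driver, the allele, the sex and the litters are not given in the sources used here. Nothing in the labels says whether the libraries of a group came from separate embryos, so the spread between libraries may be technical. With 2 libraries per group, the p-values and intervals rest largely on spread shared across all genes (median prior degrees of freedom 38.7). They measure a gene's own spread between libraries only in small part.

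A Frizzled receptor spans the membrane several times and binds Wnt through a cysteine-rich domain outside the cell. Together with the co-receptors Lrp5 and Lrp6 it recruits Dishevelled and stabilizes beta-catenin, and together with Celsr and Vangl proteins it takes part in planar cell polarity, the alignment of cells within a sheet. In the developing cortex Wnt signals act on radial glia, the stem cells of the tissue, and on the growth of axons. By sequence the mammalian receptors fall into subfamilies, with Fzd1, Fzd2 and Fzd7 in one and Fzd5 and Fzd8 in another. Fzd3 and Fzd6 stand together, and Fzd4 is usually placed with Fzd9 and Fzd10.

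Each library held 22294237 to 24609627 counts over the genes analysed, and levels are given as CPM, the count scaled to a common library size. A floor of 3 counts equals 0.12 to 0.132 CPM on this scale. In control 1 and control 2 Lhx2 itself stood at 316 and 287 CPM, and in Lhx2 cKO 1 and 2 at 239 and 247 CPM. The Lhx2 cKO libraries lay below the controls, and the fitted log2 fold change was -0.31 with an SE of 0.0976 (adjusted p = 0.0191). The counts cover the whole gene, and since the targeted part is not given in the sources used here, they do not show how much intact transcript was left. The call was lost without control 1 (log2 fold change -0.25, adjusted p = 0.176), without Lhx2 cKO 1 (-0.28, adjusted p = 0.102) and without Lhx2 cKO 2 (-0.34, adjusted p = 0.0538).

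Transcripts of 4 of the 9 receptors were lower in Lhx2 cKO: Fzd8 and Fzd1 fell to 27.6% and 30.1% of their control level, and Fzd7 and Fzd2 fell by smaller amounts. Fzd3, Fzd4, Fzd5, Fzd6 and Fzd9 did not pass the test. A gene is said to be called when its adjusted p in edgeR's quasi-likelihood test, corrected over all 13288 genes tested, was under 0.05. Across all genes, 20.8% were called, 9.17% as lower and 11.6% as higher, against 4 of 9 receptors as lower and 0 of 9 as higher. DESeq2 and limma-voom also gave 0 receptors as higher, and 2 receptors, Fzd4 and Fzd9, were higher at an unadjusted p under 0.05 in edgeR. The median log2 fold change was -0.25 over the 9 receptors and 0.003 over all genes tested. The receptor median is the value of Fzd5, whose 95% interval ran from -1.01 to 0.51, so its sign is not settled. The Lhx2 cKO libraries lay on one side of both control libraries for 6 of the 9 receptors, a share close to the 59.3% of all genes. Because the family was picked with these counts known, the adjusted p-values below describe the fit and are no independent support. All 9 receptors passed the low-count filter.

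**Figure D1:**
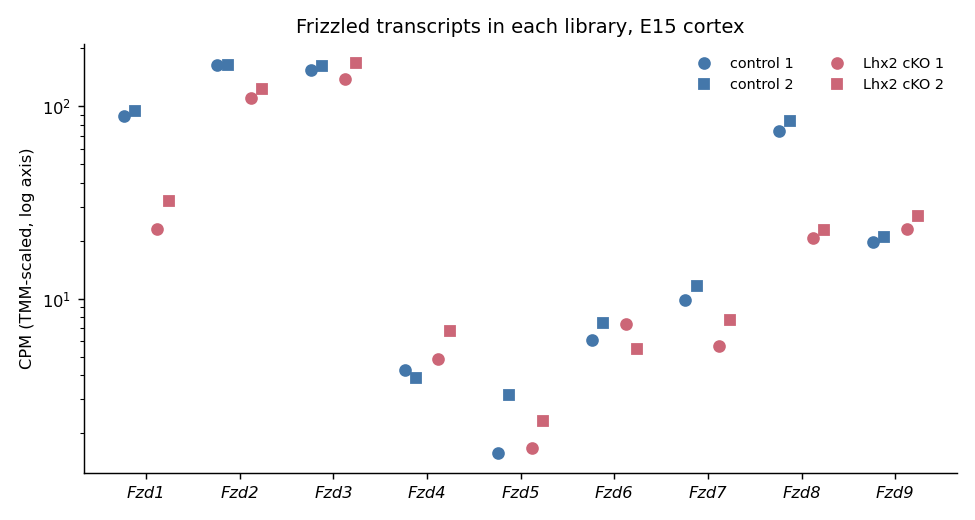
Level of each receptor transcript in each library, in CPM scaled with TMM factors on a log axis; circles are replicate 1 and squares replicate 2, blue for control and red for Lhx2 cKO. Fzd1 and Fzd8 show the widest gap between the colours, with controls at 74.1 to 94.5 CPM and Lhx2 cKO libraries at 20.8 to 32.2 CPM.

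Fzd8 (ENSMUSG00000036904.7), a receptor of forebrain progenitors, had the largest fall of the family. Its counts were 1796 and 2100 in control against 473 and 524 in Lhx2 cKO, which is 74.1 and 84.02 CPM against 20.8 and 22.8 CPM. Both Lhx2 cKO libraries were far below both controls, and within each group the libraries lay close together. The means were 79.04 ± 7.04 CPM in control and 21.8 ± 1.43 CPM in Lhx2 cKO (SD, n = 2). The log2 fold change was -1.86 (SE 0.108, 95% interval -2.08 to -1.64, adjusted p = 5.49e-17), so that 27.6% of the control level was left. Among the 13288 genes tested it ranked 24 by size of fall and 8 by p. Its closest relative in the family, Fzd5 (ENSMUSG00000045005.10), a receptor with a role in eye development, was at 1.57 and 3.16 CPM in control and 1.67 and 2.31 CPM in Lhx2 cKO. The Lhx2 cKO values of Fzd5 lay between the control values. Its log2 fold change of -0.25 had a 95% interval from -1.01 to 0.51 (adjusted p = 0.697), which is too wide to tell a halving from a modest rise, and without control 2 the estimate was 0.34.

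Fzd1 (ENSMUSG00000044674.7), Fzd2 (ENSMUSG00000050288.7) and Fzd7 (ENSMUSG00000041075.9), the members of the first subfamily, were all called lower. Fzd1 was at 88.8 and 94.5 CPM in control and at 22.9 and 32.2 CPM in Lhx2 cKO, or means of 91.6 ± 4.04 and 27.6 ± 6.59 CPM (SD, n = 2). The Lhx2 cKO libraries of Fzd1 differed from each other more than the control libraries did, and both stayed far below control. Its log2 fold change was -1.73 (SE 0.116, 95% interval -1.97 to -1.499, adjusted p = 2.90e-15), or 30.1% of control, rank 31 of 13288 by size of fall and 19 by p. Fzd2 was at 163 and 165 CPM in control and at 111 and 123 CPM in Lhx2 cKO. Its fall was shallow and its control libraries nearly equal, with means of 164 ± 1.14 and 117 ± 8.33 CPM (SD, n = 2). The log2 fold change of Fzd2 was -0.49 (SE 0.095, 95% interval -0.68 to -0.30, adjusted p = 1.47e-04), or 71.3% of control. Fzd7 was at 9.82 and 11.7 CPM in control and 5.67 and 7.70 CPM in Lhx2 cKO. The groups did not overlap, and the log2 fold change was -0.68 (SE 0.191, 95% interval -1.07 to -0.30, adjusted p = 0.00775), or 62.2% of control. The call of Fzd7 was lost without control 2, where its log2 fold change was -0.55, and without Lhx2 cKO 1, where it was -0.48. With each library left out in turn, its log2 fold change ranged from -0.926 to -0.481. The intervals of Fzd1 and Fzd8 overlapped each other, and neither overlapped those of Fzd2 and Fzd7. The differences between receptors were not tested.

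**Figure D2:**
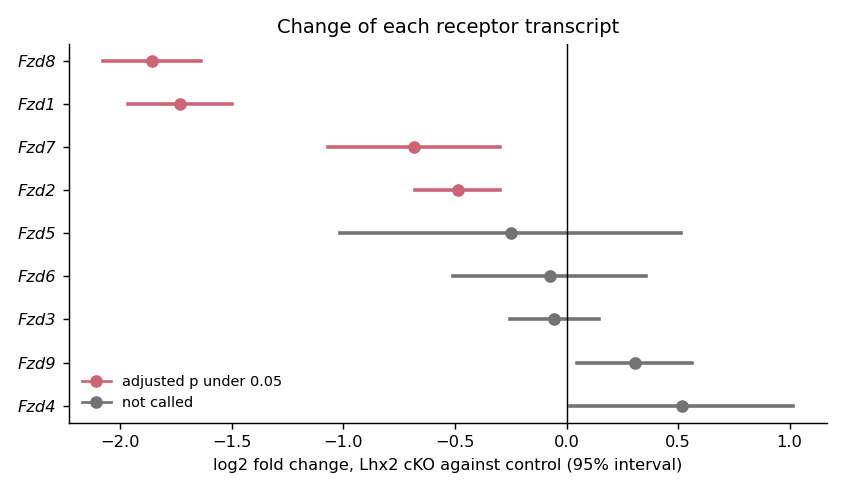
Log2 fold change of each receptor, Lhx2 cKO against control, with its 95% interval from edgeR's fit; red marks an adjusted p under 0.05 and grey receptors that were not called. Fzd8 at -1.86 and Fzd1 at -1.73 stand apart at the left, while the interval of Fzd3 spans 0 narrowly and that of Fzd5 widely.

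Fzd1 and Fzd7 are the called receptors whose promoters are in the RefSeq table used here, which holds 6 Frizzled genes, and the sequences are shown because these transcripts fell together. Each is the 250 bases before the RefSeq transcript start on the gene's own strand, in build GRCm38.p6, whereas the counts were made on mm39. The Fzd1 window is chr5:4758217-4758466 on the minus strand and the Fzd7 window chr1:59481897-59482146 on the plus strand. Capitals mark matches to either of the motifs searched on both strands. One motif was CTTTGA with its reverse complement TCAAAG, a form of the core bound by TCF/LEF factors, nuclear partners of beta-catenin. The other was the palindrome TAATTA, a core bound by many homeodomain factors. Other forms of these cores were not searched.
Fzd1: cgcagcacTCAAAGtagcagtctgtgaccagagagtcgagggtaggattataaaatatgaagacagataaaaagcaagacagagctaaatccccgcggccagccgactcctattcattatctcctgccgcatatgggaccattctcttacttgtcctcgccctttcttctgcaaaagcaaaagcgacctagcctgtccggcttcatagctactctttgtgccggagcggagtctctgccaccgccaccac
Fzd7: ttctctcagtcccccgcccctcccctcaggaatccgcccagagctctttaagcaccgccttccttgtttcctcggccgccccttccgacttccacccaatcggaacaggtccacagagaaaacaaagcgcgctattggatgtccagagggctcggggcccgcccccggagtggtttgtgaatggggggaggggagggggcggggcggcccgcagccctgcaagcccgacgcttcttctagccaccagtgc
The Fzd1 window held 1 match to CTTTGA or its reverse complement, and the Fzd7 window had no capitals. The Fzd7 window does hold ACAAAG, a near form that was not searched, and the Fzd1 window holds its reverse complement CTTTGT. A lack of capitals is therefore not a lack of TCF/LEF sites. Over all 32851 RefSeq windows of this length, 13.8% held CTTTGA or its reverse complement and 4.84% held TAATTA. The windows also differed in base composition, with 51.2% G and C in Fzd1 and 65.2% in Fzd7, beside a median of 52.4% over all windows and of 74.6% over the 6 Frizzled windows, so both lay below the family's median. A match describes the letters of the window only, and factor binding was not measured.

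Fzd3 (ENSMUSG00000007989.8), needed for the growth of major axon tracts, showed no change past the test. It was at 155 and 162 CPM in control and at 138 and 167 CPM in Lhx2 cKO, so the Lhx2 cKO libraries lay on both sides of the controls. The log2 fold change was -0.06 (SE 0.0987, adjusted p = 0.749), and its 95% interval from -0.25 to 0.14 holds only changes smaller than the estimate for Fzd2. Without Lhx2 cKO 1 it was 0.08. Fzd6 (ENSMUSG00000022297.16), its relative in planar polarity, was at 6.06 and 7.44 CPM in control and 7.38 and 5.44 CPM in Lhx2 cKO, again with overlapping groups. The log2 fold change of Fzd6 was -0.08 (95% interval -0.51 to 0.36, adjusted p = 0.847), and it was 0.08 without control 2 and 0.12 without Lhx2 cKO 2. Exons of Fzd6 share bases with Gm26704, and those of Fzd5 with Gm38058, both on the other strand in GENCODE M21, and since the use of strand in counting is not given in the sources used here, these counts are uncertain. The other 7 receptors share no exon bases with another gene in that annotation.

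Fzd9 and Fzd4 were the receptors with estimates above 0. Fzd9 (ENSMUSG00000049551.3), whose human counterpart lies in the interval deleted in Williams syndrome, was at 19.6 and 20.97 CPM in control and at 23.2 and 26.9 CPM in Lhx2 cKO. Both Lhx2 cKO libraries were above both controls, and the log2 fold change of 0.31 (SE 0.128, 95% interval 0.05 to 0.56) did not pass the correction (adjusted p = 0.0852). Without Lhx2 cKO 1 the log2 fold change of Fzd9 was 0.41 (adjusted p = 0.0497), and the receptors called higher then numbered 1. Fzd4 (ENSMUSG00000049791.5), the receptor for Norrin in blood vessel growth, was at 4.25 and 3.88 CPM in control and at 4.83 and 6.79 CPM in Lhx2 cKO. Its log2 fold change was 0.52 (SE 0.247, 95% interval 0.02 to 1.02, adjusted p = 0.14), ranging from 0.25 without Lhx2 cKO 2 to 0.74 without Lhx2 cKO 1. Markers of endothelial cells, in which Fzd4 acts, moved the same way, with 7 of 10 called higher against 11.6% of all genes. Their summed level was 250.2 to 304 CPM in control and 352 to 410 CPM in Lhx2 cKO. Of the 3 with the highest mean CPM, Cldn5, a tight junction protein, was at 0.70 on the log2 fold change scale (adjusted p = 1.09e-06), Slc2a1, the glucose transporter of brain vessels, at 0.07 (adjusted p = 0.705) and Kdr, a VEGF receptor, at 0.49 (adjusted p = 0.00381). Kdr lost its call without control 1 (0.23, adjusted p = 0.316), and Slc2a1 was at -0.06 without control 1 and -0.04 without Lhx2 cKO 2. The part of vessel cells in the Fzd4 values was not tested.

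Levels of different receptors were compared per length, as RPKM, the CPM divided by the deposited gene length in kilobases. In control the order was Fzd2 at 44.8 ± 0.312 RPKM (SD, n = 2), Fzd1 at 21.8 ± 0.963, Fzd8 at 13.2 ± 1.18, Fzd3 at 12.4 ± 0.395 and Fzd9 at 8.84 ± 0.424 RPKM. Fzd7 followed at 2.37 ± 0.291 RPKM, then Fzd6 at 1.40 ± 0.202, Fzd4 at 0.605 ± 0.0386 and Fzd5 at 0.342 ± 0.163 RPKM. The only neighbours in this order whose libraries overlapped were Fzd8 and Fzd3. In Lhx2 cKO Fzd2 was still first at 31.9 ± 2.27 RPKM (SD, n = 2), and Fzd3 at 11.9 ± 1.61 and Fzd9 at 10.9 ± 1.17 RPKM came next. Fzd1, at 6.57 ± 1.57 RPKM, had moved from rank 2 to rank 4 and Fzd8, at 3.65 ± 0.239 RPKM, from rank 3 to rank 5. Below them were Fzd7 at 1.48 ± 0.318, Fzd6 at 1.33 ± 0.285, Fzd4 at 0.865 ± 0.206 and Fzd5 at 0.288 ± 0.0651 RPKM. Here Fzd3 overlapped Fzd9, and Fzd7 overlapped Fzd6. With the longest coding transcript in GENCODE M21 as the length, the control order was the same, and in Lhx2 cKO the neighbours Fzd7 and Fzd6 changed places.

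Summed over the 9 receptors, the level was 103.0 and 108.5 RPKM in the control libraries and 63.9 and 73.98 RPKM in the Lhx2 cKO libraries. The share of this sum that came from the 4 receptors called lower stood at 77.9% and 77.5% in control against 63.4% and 63.1% in Lhx2 cKO, a shift that follows from how those receptors were defined and is given as a description. Fzd1 went from 20.6 ± 0.151% to 9.46 ± 1.29% of the sum and Fzd8 from 12.5 ± 0.654% to 5.31 ± 0.204% (SD, n = 2). Fzd9 went from 8.36 ± 0.0939% to 15.9 ± 0.0454% and Fzd3 from 11.7 ± 0.0574% to 17.3 ± 0.542% of the sum. Fzd2, although called lower by itself, made up 42.4 ± 1.26% of the sum in control and 46.4 ± 1.52% in Lhx2 cKO. A share rises when other members fall, so these values describe the mixture of receptor transcripts and not their amounts.

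**Figure D3:**
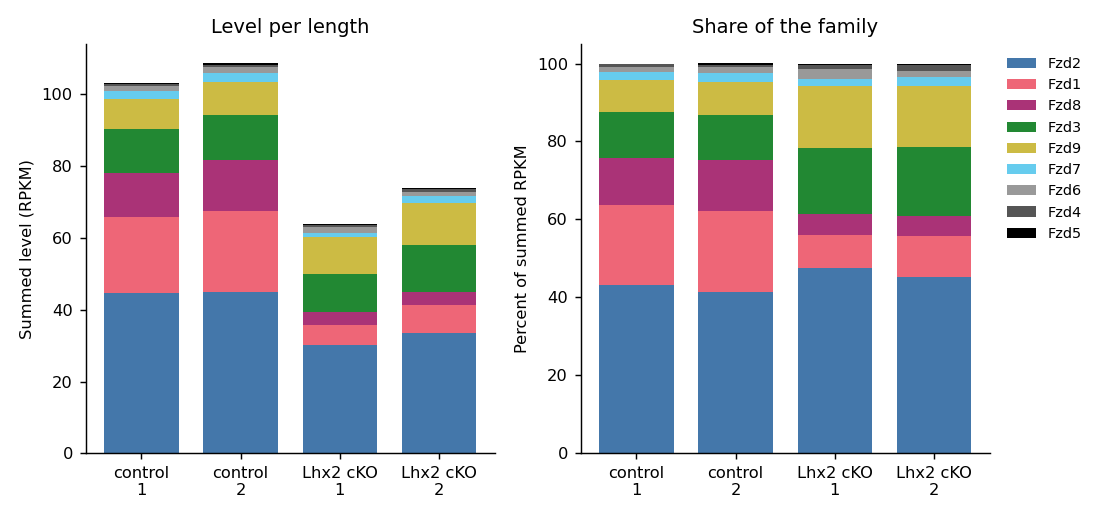
Stacked levels of the 9 receptors in each library, as RPKM at the left and as percent of the summed RPKM at the right; each colour is a receptor. The summed level is 103.0 and 108.5 RPKM in control and 63.9 and 73.98 RPKM in Lhx2 cKO, and in percent of the sum the Fzd1 and Fzd8 bands are the ones that narrow most.

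In cortical tissue fewer cells of a type and less RNA per cell cannot be told apart, so progenitor markers are given beside the receptors. Over all genes tested, 9.17% were called lower and 11.6% higher, shares that belong beside the marker counts here and in the next paragraph. Of 10 radial glia markers, 4 were called lower and 1 higher, and their summed level was 837 and 885 CPM in control and 805 and 781 CPM in Lhx2 cKO, or 92.1% of the control mean. The 4 called lower, named after their values were seen, were the transcription factors Pax6 and Emx2, the receptor Notch1 and the intermediate filament Nes. Pax6 fell from 123 and 134 CPM to 57.5 and 51.7 CPM, which is 42.4% of control (log2 fold change -1.24, adjusted p = 6.40e-13). Notch1 was at 60.6% of control (log2 fold change -0.72, adjusted p = 3.92e-07), Emx2 at 68.2% (-0.55, adjusted p = 0.00106) and Nes at 75.8% (-0.40, adjusted p = 0.00438). Nes lost its call without control 1 (-0.24, adjusted p = 0.192) and without Lhx2 cKO 2 (-0.35, adjusted p = 0.0503). Among the 3 with the highest mean CPM, Vim and Fabp7, another intermediate filament and a fatty-acid-binding protein, were not called (log2 fold changes 0.20 and 0.16, adjusted p = 0.149 and 0.253), and the glutamate transporter Slc1a3 was at 0.27 (adjusted p = 0.0425). Slc1a3 lost its call without control 1 (0.13, adjusted p = 0.532), without Lhx2 cKO 1 (0.30, adjusted p = 0.0696) and without Lhx2 cKO 2 (0.24, adjusted p = 0.194). Of 8 markers of dividing cells, 7 were called lower, and their summed level was 352 and 402 CPM in control and 229 and 232 CPM in Lhx2 cKO, or 61.1% of control. Among them the proliferation antigen Mki67 was at -0.87 (adjusted p = 5.85e-09), the topoisomerase Top2a at -0.86 (adjusted p = 8.17e-09) and the replication clamp Pcna at -0.02 (adjusted p = 0.928) on the log2 scale, Pcna turning to 0.01 without Lhx2 cKO 1. Of 7 intermediate progenitor markers, 5 were called lower, with sums of 617 and 611 CPM in control and 363 and 367 CPM in Lhx2 cKO, or 59.4% of control. Eomes was at -1.66 (adjusted p = 5.49e-17), Neurog2 at -0.43 (adjusted p = 7.06e-04) and Mfng at -0.56 (adjusted p = 2.88e-05). The radial glia list was thus mixed, with 4 called lower, 1 higher and a sum at 92.1% of control. Most markers of dividing cells and intermediate progenitors were called lower. Fzd8 stood at 27.6% of control and Fzd1 at 30.1%, and the part of these cells in the receptor values was not tested.

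Markers of other cell types were described in the same way, as transcript levels in bulk tissue and not as numbers of cells. Summed marker levels in Lhx2 cKO were 211% of control for microglia (7 of 8 called higher), 184% for oligodendrocyte precursors (5 of 6 higher), 162% for Cajal-Retzius cells (4 of 7 higher) and 157% for astrocytes (4 of 6 higher). They were 105% for cortical neurons (2 of 10 higher and 2 lower), 125% for ventral telencephalon and interneurons (2 of 8 higher), 82.3% for pericytes and meningeal fibroblasts (2 of 8 lower) and 73.1% for red blood cells (5 of 6 lower and 1 higher). For cortical hem with choroid plexus, 3 of 10 listed genes were measured, 1 called higher and 1 lower, and their sum was 74.9% of control. They are Wnt2b and the R-spondins Rspo2 and Rspo3. None of the markers with a row had 0 counts in a library. The part of these cells in the receptor values was not tested.

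Of all genes tested, 20.8% were called, 9.17% as lower and 11.6% as higher, and these shares belong beside each list count below. Among the other genes of the pathway, the co-receptors moved less than Fzd1 and Fzd8. Of the 8 co-receptors measured, 1 was called, Lrp5, the partner of Frizzled in beta-catenin signalling, at 75.4 and 64.5 CPM in control and 46.8 and 49.8 CPM in Lhx2 cKO, or -0.53 ± 0.103 (SE) on the log2 fold change scale (adjusted p = 1.31e-04). Its paralogue Lrp6 was at -0.23 (adjusted p = 0.0785). The alternative Wnt receptors Ryk at 0.07 and Ror2 at 0.28, the polarity receptor Ptk7 at -0.19, and the vascular Wnt co-receptors Adgra2 at 0.31, Reck at -0.14 and Tspan12 at 0.002 on the log2 scale had adjusted p between 0.166 and 0.993. Adgra2 passed the threshold without control 1 (0.56, adjusted p = 0.0275) and without Lhx2 cKO 1 (0.47, adjusted p = 0.0445). The list median was -0.07.

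Of the 8 ligands measured, 3 were called higher and 1 lower, with a list median of 0.51. Their summed level, most of it from Wnt7b, went the other way. It was 686.2 and 592.5 CPM in control and 386.2 and 450.2 CPM in Lhx2 cKO, or 65.4% of control. Wnt7b, which also acts on brain vessels, was at 625 and 527 CPM in control and 298 and 354 CPM in Lhx2 cKO, or -0.82 ± 0.109 (SE) on the log2 fold change scale (adjusted p = 1.68e-07). Wnt7a, its close relative, was at 42.9 and 47.5 CPM in control and rose to 59.6 and 68.3 CPM, or 0.50 ± 0.104 (SE) on the log2 fold change scale (adjusted p = 3.49e-04). Wnt5b at 0.73 (adjusted p = 0.00199) and Wnt5a at 0.90 (adjusted p = 0.00854), ligands best known for beta-catenin-independent signals, were higher, at up to 12.4 and 6.20 CPM. Wnt5a lost its call without control 1 (0.74, adjusted p = 0.101) and without Lhx2 cKO 1 (0.85, adjusted p = 0.0501). The other 12 of the 20 listed ligands are not analysed here.

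Of the 7 secreted Frizzled-related proteins and Wnt antagonists measured, 3 were called higher, with a list median of 0.65. That median is the value of Frzb, which had few counts. The summed level of the list was 484 and 520 CPM in control and 463 and 505.5 CPM in Lhx2 cKO, or 96.5% of control. Dkk3, a secreted Dickkopf-family protein, rose from 22.97 and 26.8 CPM to 69.3 and 82.4 CPM, or 1.61 ± 0.11 (SE) on the log2 fold change scale (adjusted p = 6.07e-15). Dkk2, which binds Lrp co-receptors, was at 1.66 (adjusted p = 3.43e-05) from a control mean of 1.94 CPM. The secreted Frizzled-related proteins carry a Wnt-binding domain like that of the receptors. Sfrp1 was at 418 and 446 CPM in control and 350 and 375 CPM in Lhx2 cKO without passing the test (log2 fold change -0.25, adjusted p = 0.07; DESeq2 adjusted p = 0.0321). Sfrp2 was at -0.15 (adjusted p = 0.476). Sfrp4 was at 1.52 (adjusted p = 0.00353) from 42 and 19 counts in control to 58 and 105 in Lhx2 cKO, and it lost its call without control 2 (1.04, adjusted p = 0.0694) and without Lhx2 cKO 2 (1.03, adjusted p = 0.173). Frzb counts were 5 and 41 in control against 34 and 33 in Lhx2 cKO, so its log2 fold change of 0.65 (adjusted p = 0.412) went from -0.17 without control 1 to 2.80 without control 2 (adjusted p = 0.00412).

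The R-spondins protect Frizzled from removal by the ubiquitin ligases Znrf3 and Rnf43. Of the 4 genes of this axis measured, Rspo3 fell from 49.6 and 46.8 CPM to 27.6 and 25.5 CPM, or -0.86 ± 0.108 (SE) on the log2 fold change scale (adjusted p = 5.55e-08). Rspo2 rose from 3.22 and 1.48 CPM to 8.26 and 12.1 CPM, or 2.12 ± 0.262 (SE) on the log2 fold change scale (adjusted p = 3.77e-08). Znrf3 and Lgr4, the remaining genes of the 4, were not called.

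Of the 18 Dishevelled and beta-catenin transducers, 5 were called lower and 1 higher, with a list median of -0.21. The adaptors that receive the signal from Frizzled were at -0.31 for Dvl3 (adjusted p = 0.0143), -0.29 for Dvl2 (adjusted p = 0.0408) and -0.07 for Dvl1 (adjusted p = 0.668). The largest fall was that of Tcf7l1, a TCF factor known as a repressor, from 15.8 and 14.9 CPM to 9.14 and 8.92 CPM (log2 fold change -0.76, adjusted p = 4.10e-04). The beta-catenin co-factors Bcl9l at -0.40 (adjusted p = 0.00436) and Bcl9 at -0.30 (adjusted p = 0.0222) were lower, and Pygo1 at 0.27 (adjusted p = 0.0383) was higher. Several of these calls depended on single libraries. Without control 1 the log2 fold changes and adjusted p-values were -0.32 and 0.052 for Dvl3, -0.15 and 0.516 for Dvl2, -0.22 and 0.243 for Bcl9, -0.21 and 0.272 for Bcl9l and 0.19 and 0.328 for Pygo1. Without Lhx2 cKO 1, Dvl2 was at -0.32 (adjusted p = 0.0657) and Pygo1 at 0.21 (adjusted p = 0.242), and without Lhx2 cKO 2, Dvl3 was at -0.24 (adjusted p = 0.207), Dvl2 at -0.27 (adjusted p = 0.184) and Bcl9 at -0.27 (adjusted p = 0.147). Dvl2 also lost its call in DESeq2 (adjusted p = 0.0999), as did Pygo1 (adjusted p = 0.0697), and with library totals alone Pygo1 had an adjusted p of 0.0606.

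Genes that beta-catenin signalling is known to raise were described from a list of 16, of which 11 were measured. Of these 3 were called higher, and the list median was -0.001. Apcdd1, a membrane inhibitor of Wnt signals, rose from 81.3 and 88.02 CPM to 128 and 163 CPM (log2 fold change 0.78, SE 0.103, adjusted p = 1.56e-07). Tnfrsf19, a receptor of the tumour necrosis factor family, was at 0.72 (adjusted p = 2.62e-06). Nkd2, a Dishevelled-binding inhibitor, was at 0.55 (adjusted p = 0.0245) and was not called without control 2 (0.41, adjusted p = 0.209), without Lhx2 cKO 1 (0.52, adjusted p = 0.0966), without Lhx2 cKO 2 (0.58, adjusted p = 0.0792) or in DESeq2 (adjusted p = 0.0691). Axin2, the most widely used readout of the pathway, chosen here after its values were seen, was at 22.1 and 24.8 CPM in control and at 24.7 and 25.3 CPM in Lhx2 cKO (log2 fold change 0.09, SE 0.123, adjusted p = 0.66).

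Of the 13 planar cell polarity genes measured, 6 were called lower and 3 higher, with a list median of -0.28. The Dishevelled genes stand in this list and among the transducers. Celsr1, an atypical cadherin that works with Frizzled at cell borders, fell from 367 and 375 CPM to 160 and 158 CPM, or -1.22 ± 0.0975 (SE) on the log2 fold change scale (adjusted p = 5.01e-13). Its paralogue Celsr2 was at -0.48 (adjusted p = 6.32e-04), the Diversin gene Ankrd6 at -0.53 (adjusted p = 1.28e-04) and Vangl2, a membrane partner on the opposite side of the border, at -0.33 (adjusted p = 0.0118). The cytoplasmic partners Prickle1 at 0.44 (adjusted p = 0.0066) and Prickle2 at 0.63 (adjusted p = 0.00826) were higher. So was Vangl1, the paralogue of Vangl2, at 0.91 (adjusted p = 0.0169) from a control mean of 2.56 CPM. Vangl1 is named outside the naming rule, and its exon sharing was not examined. Vangl2 lost its call without Lhx2 cKO 1 (-0.29, adjusted p = 0.0977). Prickle1 lost its call without control 1 (0.42, adjusted p = 0.0516) and without Lhx2 cKO 1 (0.35, adjusted p = 0.101), and Prickle2 without control 2 (0.53, adjusted p = 0.0822) and without Lhx2 cKO 2 (0.59, adjusted p = 0.07). In GENCODE M21 exons of Adgra2, Bcl9l, Dvl1, Dvl2, Emx2, Eomes, Notch1, Rspo3, Sfrp2, Slc2a1, Tcf7l1, Tspan12, Wnt5a and Wnt7b share bases with a gene on the other strand, and those of Dvl2 and Top2a with a small RNA on the same strand, so their counts are uncertain.

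**Figure D4:**
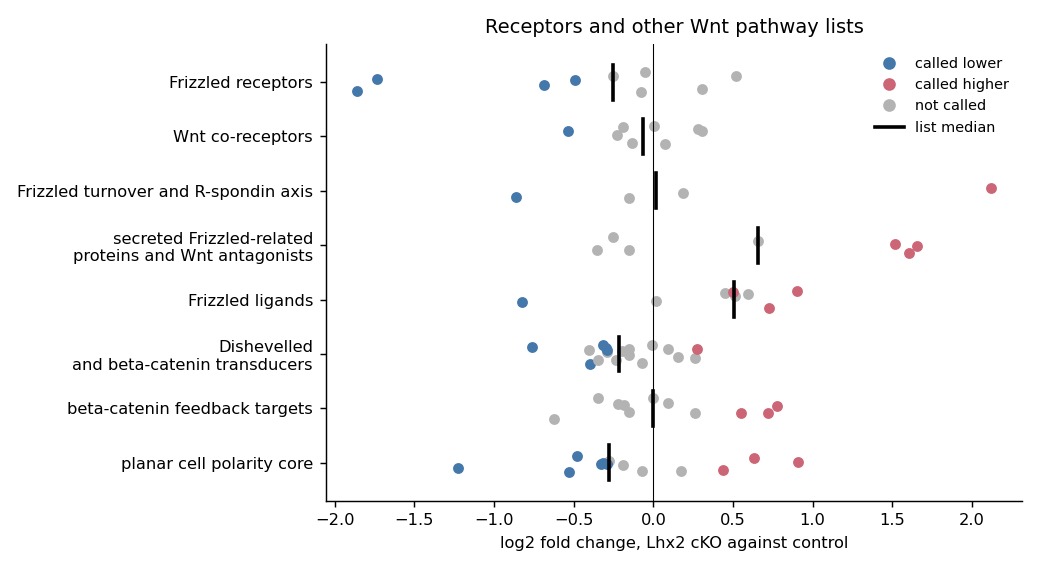
Log2 fold change of every measured gene in the receptor family and in 7 other Wnt pathway lists; blue points were called lower, red called higher and grey not called, and black bars are list medians. The receptor row reaches from -1.86 for Fzd8 to 0.52 for Fzd4, with its median at -0.25, the value of Fzd5.

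The profiles nearest to the receptor with the largest fall and to the one with the largest estimate above 0 were searched among 12454 other genes whose mean reached 2 CPM, as the Euclidean distance between centred log2 CPM over the 4 libraries. Nearest to Fzd8 were Slc30a10, a manganese exporter, at a distance of 0.179, Gm10406, a predicted gene, at 0.2 and Palmd, which encodes palmdelphin, at 0.206. Their log2 fold changes were -1.72, -2.01 and -1.78. Nearest to Fzd4 were Afap1l2, an actin-filament-associated adaptor, at 0.0359 and Arhgef37, a guanine nucleotide exchange factor gene, at 0.041, with log2 fold changes of 0.55 and 0.50. With 4 libraries in 2 groups such a likeness rests mostly on the difference between the groups.

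For the receptors called here, the authors' deposited table gives log2 fold changes of -1.87 for Fzd8, -1.74 for Fzd1, -0.69 for Fzd7 and -0.50 for Fzd2, with the authors' adjusted p at 1.17e-55, 2.44e-43, 0.00519 and 1.62e-05. That table marks Fzd8, Fzd1 and Fzd7 as down and the other receptors, Fzd2 included, as NS. The mark does not follow the adjusted p alone, since that of Fzd2 was below that of Fzd7. Lhx2 is also marked NS there, at -0.32 with the authors' adjusted p at 0.0117. In the same table Fzd9 was at 0.30 with an adjusted p of 0.118 and Fzd4 at 0.51 with an adjusted p of 0.155.

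**Figure D5:**
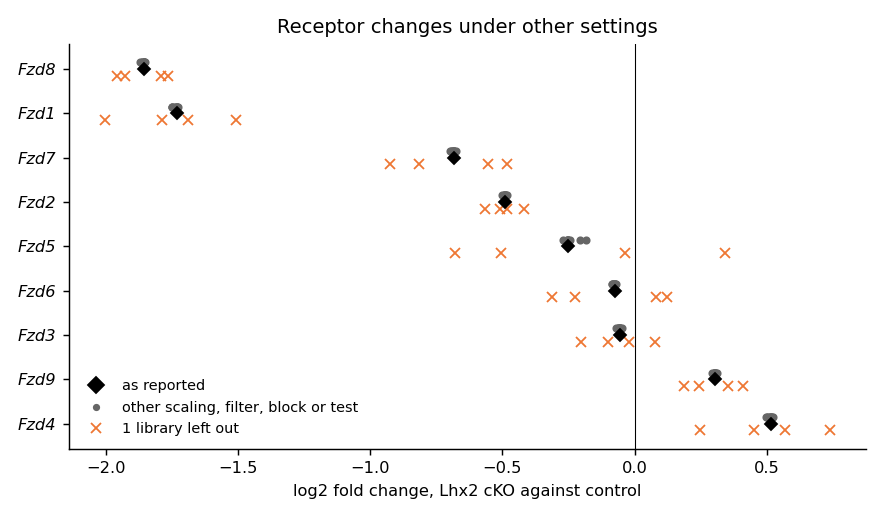
Log2 fold change of each receptor as reported (black diamonds), under other scalings, filters, a replicate block or other tests (grey dots) and with 1 library left out (orange crosses). The crosses of Fzd8 range from -1.96 to -1.76 and those of Fzd1 from -2.00 to -1.51, while those of Fzd3, Fzd5 and Fzd6 fall on both sides of 0.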

How the data were processed

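RNA-seq of polyadenylated RNA gave 4 libraries, 2 per group, which were assigned to groups by their titles. The raw read counts per gene were deposited by the authors, and per the submitters' processing notes Trim Galore, Subread, featureCounts, edgeR and build mm39 were used, without versions or settings. Gene lengths, log2 fold changes, mean log2 CPM, p-values, adjusted p-values and their -log10 were also deposited by the authors, and the test behind them is not given in the sources used here. Counts were tested with edgeR 4.0.16 in R 4.3.3 (TMM, filterByExpr with a minimum of 10 counts, glmQLFit and glmQLFTest, two-sided, Benjamini-Hochberg over 13288 genes, 1 gene removed by the filter). TMM factors ranged from 0.973 to 1.02. Standard errors were derived from the log2 fold change and its F statistic. CPM and RPKM were scaled with TMM over the genes analysed here. The 2 libraries of a group differed by more than sampling noise (chi-square 13.9 times its degrees of freedom in control, 14.3 times in Lhx2 cKO). Intervals and floors cover counting error or library spread only, since reads carry no molecular identifiers. Alternatives were other scalings, filters, a replicate block, DESeq2 1.42.0, limma-voom (limma 3.58.1), a threshold of 0.01 and leaving out each library. The receptors and the lists were chosen with earlier results of these data known. The rule named Lhx2, every receptor, up to 6 called genes per pathway list by p, all co-receptors, Dishevelled and secreted Frizzled-related genes, and up to 3 markers of highest mean CPM per cell type, together with the 3 nearest profiles of each of 2 receptors, of which 1 is not reported here. The fit was tested on simulated data.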

Additional observations from a re-analysis of the deposited data

How the results depend on the processing

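With all libraries, none of the 9 receptors changed direction or its side of the threshold under the scalings, filters, the replicate block, DESeq2, limma-voom or a threshold of 0.01, and 4 receptors were called lower under each. Log2 fold changes then ranged from -1.87 to -1.85 for Fzd8, -1.75 to -1.73 for Fzd1, -0.70 to -0.68 for Fzd7 and -0.50 to -0.48 for Fzd2. The replicate block gave 2874 called genes in place of 2758, and deviations of same-numbered libraries correlated at 0.000974 across genes. The correlation shows no shared deviation by number, and it cannot tell whether same-numbered libraries shared a litter or a preparation. A threshold of 0.01 left 1697 genes called and Lhx2 (-0.309) not called, by construction. With 1 library left out, the lone library of its group is assumed to vary like the others. Over these fits the genes called ranged from 1633 to 2396, receptors called lower from 3 to 4 and called higher from 0 to 1. Log2 fold changes ranged from -0.376 to -0.25 for Lhx2, -2.004 to -1.508 for Fzd1, -1.959 to -1.764 for Fzd8, -0.567 to -0.418 for Fzd2, -0.926 to -0.481 for Fzd7, -0.204 to 0.077 for Fzd3, 0.247 to 0.74 for Fzd4, -0.679 to 0.343 for Fzd5, -0.312 to 0.124 for Fzd6 and 0.188 to 0.41 for Fzd9. Among other named genes, Tspan12 was at -0.002 with RLE factors and in DESeq2 and at -0.01 with library totals, and ranged from -0.092 to 0.088 with 1 library left out. Signs also turned within the ranges of Ryk (-0.043 to 0.173), Sfrp2 (-0.32 to 0.028), Frzb (-0.174 to 2.797), Dvl1 (-0.153 to 0.005), Pcna (-0.046 to 0.007) and Slc2a1 (-0.063 to 0.193, and -0.044 without Lhx2 cKO 2). The causes were not tested. A length from GENCODE M21, chosen after seeing the data, moved the Fzd6 share of the control sum to 1.47%. Depth limits Fzd5, with 38 to 79 counts per library, and Fzd4, with 97 to 156.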
